A study of Mus musculus with 6 samples.

Results

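L1 elements (LINE-1 retrotransposons) whose repeat names begin with L1_Mus, L1VL, L1_Mur or L1_Mm held 1102 of the 34673 H3K9me3 peaks that were listed as present in WT and absent in Setdb1 mutant Bergmann glia (BG), or 3.18% (95% Wilson interval 3 to 3.37). They were taken by the repeat name that the authors' annotation gives at the peak centre, a rule that uses no measured value. The 1102 members made up 19.5% (18.5 to 20.6) of the 5650 peaks on any L1. BG are the radial astroglia of the cerebellar cortex, along whose fibers granule cells migrate. H3K9me3 ChIP-seq had been done on BG at postnatal day 10, with 2 libraries from Setdb1 mutant BG, 2 from WT BG and 2 controls, all labelled C57BL/6. The mutant is the Setdb1 mGFAP CKO (mGFAP-Cre with Setdb1 flox/flox), in which Cre also acts in cerebellar cells other than BG. The study isolated BG by a fluorescent reporter, and in its RNA comparison at this age the mutant BG came from Setdb1 mGFAP CKO mice that also carried Nes GFP (GFP under a Nestin promoter) and the control BG from Nes GFP mice. The ChIP libraries are labelled only mutant and WT. The titles of the control libraries say input while their antibody label says IgG. Mice were used without regard to sex. The genotype of these controls, the sex behind each library and whether libraries of 1 genotype came from separate animals are not given in the sources used here. The list merges the libraries and gives 1 score per peak, so no spread between replicates could be computed and no p-value is given. Every interval below is a 95% interval for counting error only, and neighbouring or copied peaks are not independent.

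L1 elements copy themselves through RNA. A full-length copy has an internal promoter at its 5′ end, ORF1, which encodes an RNA-binding protein, ORF2, which encodes an endonuclease and reverse transcriptase, and a 3′ end with a poly(A) tail. Most copies lost their 5′ end when they were inserted. In the mouse, L1Md_T, L1Md_A and L1Md_Gf are the young types that still move, L1Md_F is an older type, and Lx is older still. Setdb1 is a methyltransferase that places H3K9me3, a mark of silent chromatin, on retrotransposons, to which it is brought by TRIM28 and KRAB zinc finger proteins or by the HUSH complex.

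To show what these peaks hold, 1 window is given for each of the 4 name groups, from the member with the highest score among those that could be printed and whose own alignment puts the centre in ORF2 (mm10, 300 bases about the centre, in the orientation of the element). The L1_Mus3 window is chr13:68076760-68077059 (plus strand, intergenic, score 17.7), the L1VL4 window chr8:71954802-71955101 (minus strand, intron, 3.89 kb from the TSS of Zfp961, score 9.95), the L1_Mur3 window chr12:67561581-67561880 (minus strand, intergenic, score 13.2) and the L1_Mm window chrX:34470334-34470633 (plus strand, intergenic, score 17.7). Capitals mark, in each window, the 25 bases found in the largest number of other members. For the L1_Mm window 19 of 1030 other members held that stretch, against 6 for L1VL4, 2 for L1_Mus3 and 1 for L1_Mur3. The L1VL4 stretch is of a kind common to B1 short interspersed elements, which are not L1.
L1_Mus3 window: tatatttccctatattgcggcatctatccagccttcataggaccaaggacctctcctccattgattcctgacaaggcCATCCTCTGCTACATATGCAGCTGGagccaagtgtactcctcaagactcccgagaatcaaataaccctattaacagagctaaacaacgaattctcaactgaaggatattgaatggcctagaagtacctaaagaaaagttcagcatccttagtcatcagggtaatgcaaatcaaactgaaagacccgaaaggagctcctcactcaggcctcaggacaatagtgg
L1VL4 window: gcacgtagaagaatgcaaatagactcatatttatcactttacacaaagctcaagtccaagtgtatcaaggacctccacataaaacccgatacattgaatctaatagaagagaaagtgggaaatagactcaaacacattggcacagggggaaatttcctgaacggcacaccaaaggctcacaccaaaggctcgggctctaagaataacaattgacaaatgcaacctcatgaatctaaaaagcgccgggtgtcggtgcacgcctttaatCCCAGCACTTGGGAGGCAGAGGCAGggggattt
L1_Mur3 window: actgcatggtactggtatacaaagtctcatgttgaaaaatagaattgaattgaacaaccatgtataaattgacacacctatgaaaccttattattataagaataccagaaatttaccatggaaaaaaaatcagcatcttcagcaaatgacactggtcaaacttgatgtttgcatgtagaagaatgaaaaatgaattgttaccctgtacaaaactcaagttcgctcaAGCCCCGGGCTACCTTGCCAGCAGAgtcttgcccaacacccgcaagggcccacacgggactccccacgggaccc
L1_Mm window: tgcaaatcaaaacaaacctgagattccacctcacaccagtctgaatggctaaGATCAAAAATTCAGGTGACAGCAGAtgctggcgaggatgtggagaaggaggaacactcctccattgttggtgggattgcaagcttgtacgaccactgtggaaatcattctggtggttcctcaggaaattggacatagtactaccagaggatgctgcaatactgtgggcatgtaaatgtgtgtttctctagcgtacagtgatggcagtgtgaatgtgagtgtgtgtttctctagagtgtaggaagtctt

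Identity to an L1Md_T element with both reading frames was taken over the alignment that covered the peak centre, not over the whole printed window. It was 92.0% for the L1_Mm peak, 77.3% for the L1_Mus3 peak, 73.3% for the L1VL4 peak and 69.3% for the L1_Mur3 peak. Stretches of 25 bases shared by many members lay at both ends of the element and in ORF2. The 2 most shared of each end and 1 of ORF2 are given in the orientation of the element. Their shares are over members of every name at a place, and the mix of names differed between places.
Upstream of ORF1, a: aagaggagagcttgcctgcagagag
Upstream of ORF1, b: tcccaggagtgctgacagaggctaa
In ORF2: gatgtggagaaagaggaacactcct
Downstream of ORF2, a: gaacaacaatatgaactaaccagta
Downstream of ORF2, b: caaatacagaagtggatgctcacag

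At the 3′ end, stretch a was held by 75 of 453 members placed downstream of ORF2 (16.6%), for example at chrX:31569314-31569338 (minus strand) in the member with the highest score, and stretch b by 52 of 453 (11.5%), as at chr7:15134152-15134176 (minus strand). All of these had L1_Mus names. In ORF2, the stretch was held by 28 of 184 members (15.2%), as at chr7:22864850-22864874 (plus strand), and L1_Mm was the commonest name among them. Upstream of ORF1, stretch a was held by 23 of 350 members (6.57%), as at chr3:9876243-9876267 (minus strand), and stretch b by 15 of 350 (4.29%), as at chr7:22701121-22701145 (minus strand), all with L1_Mus names.

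L1_Mus names made up most of the set, with 713 of 1102 members. L1_Mus3 had 283, L1_Mus1 206, L1_Mus4 122 and L1_Mus2 102 peaks. The L1VL names had 225 (97 L1VL4, 78 L1VL2 and 50 L1VL1), the L1_Mur names 139 (58 L1_Mur2, 45 L1_Mur1 and 36 L1_Mur3), and L1_Mm had 25. The names were checked against sequence. Identity to the L1Md_T element, over the members whose centre aligned to it, had a median of 96.5% in L1_Mm (n = 23), 82.4% in L1_Mus1 (157), 78.9% in L1_Mus2 (63), 73.5% in L1_Mus3 (149) and 71.4% in L1_Mus4 (54), so that the numbers within L1_Mus ran from nearest to farthest. It was 76.0% in L1VL (29) and 75.2% in L1_Mur (24). Over all members the median was 78.9% (quartiles 73.2 and 83.5, n = 499), between 89.2% in L1Md_F (609) and 71.8% in Lx (111). The groups were not compared over the same part of the element. Aligned centres were in ORF2 in 13.9% of L1_Mus, 55.2% of L1VL, 95.8% of L1_Mur and 100% of L1_Mm peaks.

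The score of a peak is the authors' value for its strength, on a scale not given in the sources used here. The members' scores ran from 4.81 to 49.1, with a median of 6.74 (quartiles 6.10 and 8.02), against 7.06 (6.10 and 8.34) over the whole list. At or above the list median lay 48.5% of members (45.6 to 51.5) and 51.8% of the rest of the list, a difference of -3.26 points (-6.25 to -0.266). Members thus lay slightly low in the list. The same share was 37.0% in L1Md_T, which members exceeded by 11.5 points (6.91 to 16.0), and 48.8% in L1Md_F and 46.2% in Lx, from which members differed by -0.257 points (-4.44 to 3.92) and 2.37 points (-1.26 to 6.01). With the list cut by score into 5 groups of equal size, members held 3.36% of the lowest group, 3.50%, 3.23% and 3.19% of the next ones and 2.61% (2.26 to 3.01) of the highest. Among the name groups the share at or above the list median was 56.0% in L1VL and 47.0% in L1_Mus, 9.02 points apart (1.52 to 16.3), 46.8% in L1_Mur and 36.0% (20.2 to 55.5) in L1_Mm. Of the members, 17.2% were wider than the commonest width of 500 bp, against 23.1% of the rest of the list (-5.90 points, -8.06 to -3.52). Among members of 500 bp, 38.4% had a score at or above the list median.

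**Figure D1:**
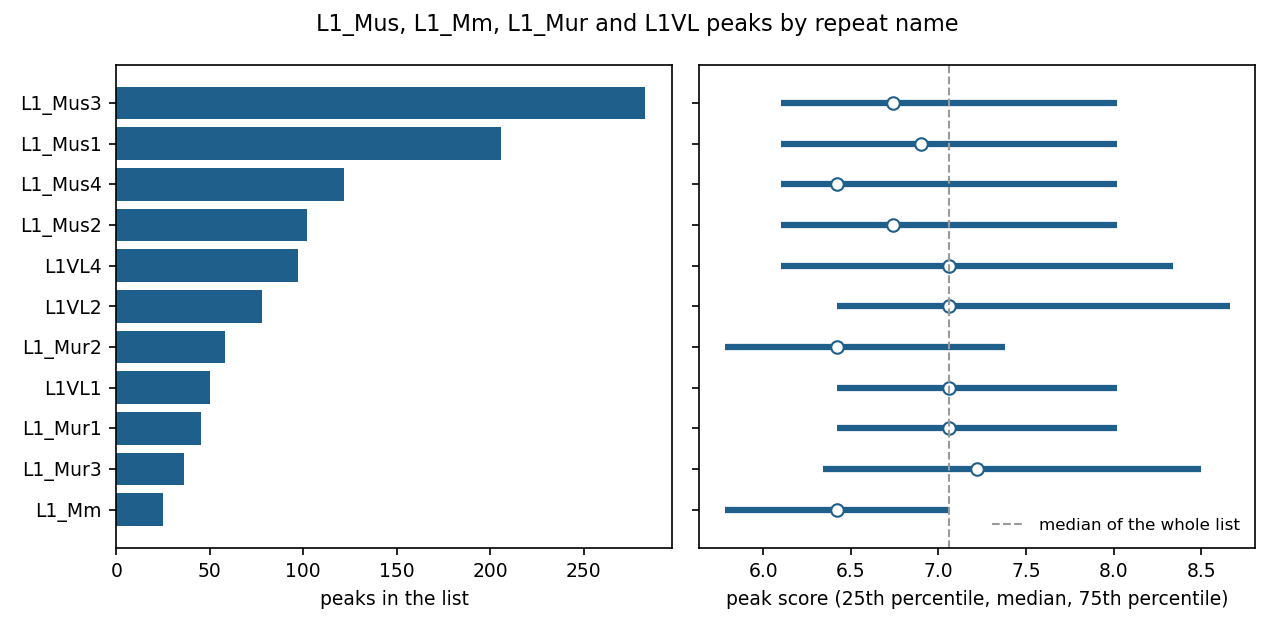
Number of listed peaks (left, bars) and peak score (right, circle at the median and line over the quartiles, scale as deposited) for each of the 11 repeat names, with the median of the whole list as a dashed line. L1_Mus3 has the most peaks (283) and L1_Mm the fewest (25), and every median lies between 6.42 and 7.22.

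Where in the element the peaks lay was read from alignment to the L1Md_T element at chr10:27903907-27911156 (minus strand, 7250 bp). This reference has an ORF1 of 387 codons and an ORF2 of 1281 codons. It was cut 1500 bases before ORF1 and 700 bases after ORF2, and whether the copy is full length was not tested. Of the 1102 members, 57.7% (54.8 to 60.6) aligned to it within the 500 bases about their centre, against 93.2% of L1Md_T, 70.3% of L1Md_F and 10.4% of Lx peaks. In 499 members the alignment covered the centre. Of these, 68.9% (64.7 to 72.8) were centred downstream of ORF2, 24.2% (20.7 to 28.2) in ORF2, 3.81% in ORF1 and 2.81% upstream of ORF1. Regular windows of 500 bases, 1 every 10 kb along the genome, gave the background, with 31084 windows whose centre aligned. There 23.1% (22.6 to 23.5) lay downstream of ORF2, 62.3% (61.8 to 62.9) in ORF2, 13% in ORF1 and 1.19% upstream of ORF1. Far upstream of ORF1 this reference gave almost no alignments, with 0 windows centred in its bases 750 to 1000 and 42 in bases 1000 to 1250. The shares upstream of ORF1, in members and in windows, thus do not measure that end. In the windows within the members' middle range of identity, 25.8% lay downstream of ORF2 and 55.6% in ORF2. Members were thus centred on ORF2 less often than these windows, and past its end more often. The windows were taken by alignment and the members by repeat name, and the part of the names in this difference was not tested. The share in ORF2 was also lower in members than in L1Md_T (72.3%, -48.1 points, -53.0 to -42.7) and in L1Md_F (30.4%, -6.13 points, -11.3 to -0.840), while its difference from Lx was -6.38 points (-16.2 to 2.37).

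Many members did not align at the peak itself. Members were therefore also placed from the nearest alignment within 4 kb to either side, extended by at most 1500 bases, a step added after the data were seen. This placed 1062 of 1102 members (96.4%), 500 of them by an alignment over the centre. Downstream of ORF2 lay 464 members (43.7%), at 341.6 to 520.8 bases past its end (quartiles). Upstream of ORF1 lay 363 (34.2%), at 198.5 to 368.0 bases before its start (quartiles). Of the 499 members whose own alignment covered the centre, 14 lay upstream of ORF1 and 344 downstream of ORF2. Most places upstream of ORF1 thus rest on extension from an alignment beside the centre, unlike most of those downstream of ORF2. This also held for L1Md_T peaks, the type of the reference. Of these, 16 of 622 with an aligned centre lay upstream of ORF1, while 113 of 730 were placed there from the flanks. Both ends together held 77.9% of the placed members (75.3 to 80.3). ORF2 held 190 (17.9%), of which 100 were in its last 1000 bases, ORF1 held 42 (3.95%) and the spacer between the frames 3. The 28 members placed past the end of the reference element were counted as downstream of ORF2.

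The name groups lay in different places. L1VL peaks were upstream of ORF1 in 154 of 221 (69.7%) and downstream of ORF2 in 12 (5.43%). L1_Mus peaks were upstream of ORF1 in 174 of 705 (24.7%), which left L1VL 45 points higher (37.8 to 51.4), and downstream of ORF2 in 435 (61.7%). Within L1_Mus, the share downstream of ORF2 was 77.8% in L1_Mus4, 68.0% in L1_Mus1, 56.1% in L1_Mus3 and 46.1% in L1_Mus2. L1_Mur peaks were spread along the element, with 35 of 111 (31.5%) upstream of ORF1, 48 (43.2%) in ORF2 and 17 (15.3%) downstream of it. L1_Mm peaks were in ORF2 in 24 of 25, and none was at either end. The names come from consensus sequences that need not cover a whole element, so name and place are not independent. Set against other L1, members were upstream of ORF1 more often than L1Md_T (15.5%, 18.7 points, 14.7 to 22.5) and Lx (6.14%, 28.0 points, 24.9 to 31.2), and differed from L1Md_F (38.0%) by -3.83 points (-7.87 to 0.238). Downstream of ORF2 they lay more often than L1Md_F (38.2%, 5.50 points, 1.34 to 9.63) and L1Md_T (21.4%, 22.3 points, 18 to 26.4), and less often than Lx (67.1%, -23.4 points, -27.3 to -19.5). Only 1336 of 2105 Lx peaks could be placed, so the Lx shares leave out those least like the L1Md_T element.

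**Figure D2:**
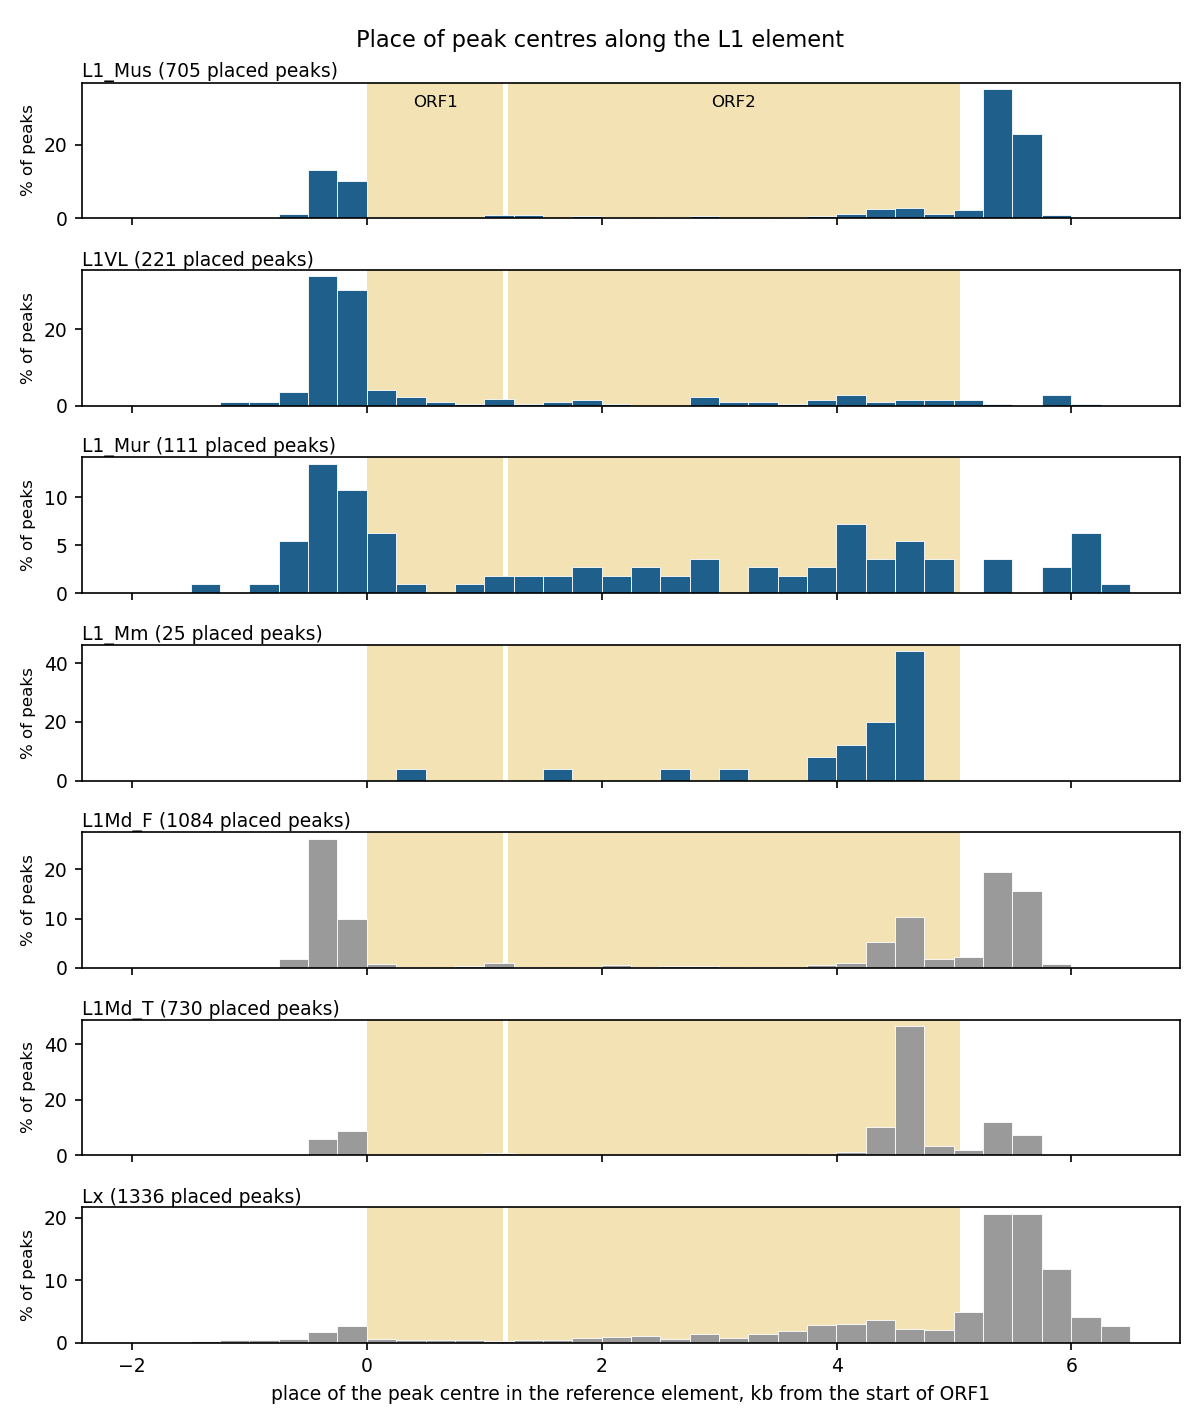
Share of placed peaks in bins along the reference element, in kb from the start of ORF1 (shaded blocks, ORF1 and ORF2), for the 4 name groups (blue) and for L1Md_F, L1Md_T and Lx peaks (grey), each with its own vertical scale. L1_Mus peaks pile up past the end of ORF2 (61.7%) and before ORF1 (24.7%), L1VL peaks before ORF1 (69.7%) and L1_Mm peaks in ORF2 (96.0%).

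Over all members, those at the 5′ end had the higher scores. Of those upstream of ORF1, 59.0% (53.8 to 63.9) lay at or above the list median, with a median score of 7.06, against 45.8% (38.9 to 52.9) in ORF2 and 42.0% (37.6 to 46.6) downstream of ORF2, where the medians were 6.74 and 6.42. The 5′ end was 16.9 points (10.1 to 23.5) above the 3′ end and 13.2 points (4.41 to 21.7) above ORF2. Places upstream of ORF1 were mostly extended from an alignment beside the centre. In L1_Mus the share was 59.2% upstream of ORF1, 53.6% in ORF2 and 41.4% downstream of ORF2, and in L1_Mur 68.6%, 33.3% and 35.3%. In L1VL it was 87 of 154 (56.5%) upstream of ORF1, 52.9% in ORF2 and 9 of 12 downstream of ORF2, the opposite order of the ends on few peaks. L1_Mm had 8 of 24 (33.3%) in ORF2. The gap between the 5′ end and ORF2 was thus smaller within L1_Mus and within L1VL than over all members. In the young types the same split was wider, with 91.2% of L1Md_T and 87.7% of L1Md_A and L1Md_Gf peaks at or above the list median upstream of ORF1 and 23.1% and 26.1% downstream of ORF2. It was also wider in the older L1Md_F (69.2% and 34.5%) and narrower in Lx (56.1% and 45.9%). Members upstream of ORF1 also had alignments that ran farther into the element. They reached 3 kb or more in 161 of 363 members upstream of ORF1 (44.4%, 39.3 to 49.5) and in 52 of 464 downstream of ORF2 (11.2%, 8.65 to 14.4), with medians of 2619.0 and 616.2 bases. For L1Md_F the shares were 72.3% and 26.3%. An alignment can stop because a copy is truncated or because it diverged, and these cannot be told apart here.

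**Figure D3:**
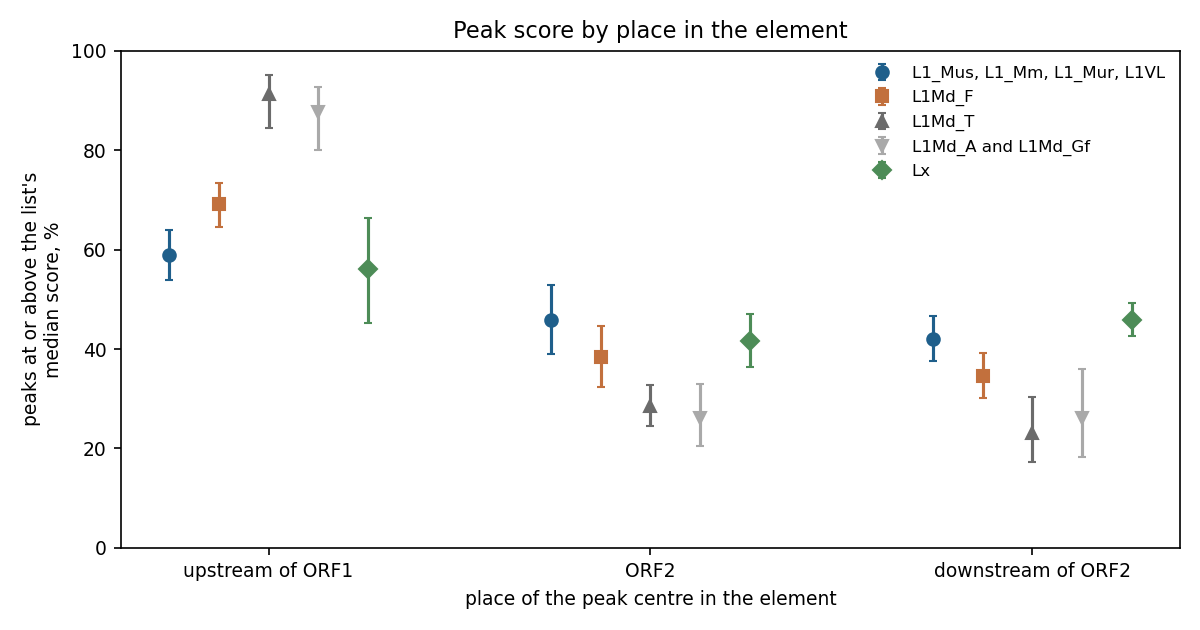
Share of peaks with a score at or above the list median by place of the peak centre in the element, for the members and other L1 types, with 95% Wilson intervals. Members range from 59.0% upstream of ORF1 to 42.0% downstream of ORF2, and L1Md_T peaks from 91.2% to 23.1%.

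A read that matched several places had been kept only at its best match, so it matters how much of a peak can be told from other copies. For each peak, windows of 100 bases were counted over both strands of the genome. In 792 of 1102 members (71.9%, 69.1 to 74.4) every window occurred once, against 45.9% of L1Md_F (26.0 points, 21.9 to 29.9), 2.33% of L1Md_T and 86.4% of Lx peaks. In 59 members (5.35%) no window occurred once, against 39.5% of L1Md_T peaks. The median share of such windows was 100% in members and 11.7% in L1Md_T, and with windows of 50 bases it was 89.8% in members. Among the names, every window occurred once in 83.6% of L1VL, 74.8% of L1_Mur and 70.1% of L1_Mus peaks and in 0 of 25 L1_Mm peaks (up to 13.3%), whose median was 54.5%. Most members could thus be told apart by their own sequence, and L1_Mm only in part. At or above the list median score lay 57.6% (44.9 to 69.4) of the 59 members with no window found once, 63.0% (52.8 to 72.2) of the 92 with up to 50% of windows, 48.4% (40.8 to 56.1) of the 159 with more, and 46.2% (42.8 to 49.7) of the 792 with all.

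**Figure D4:**
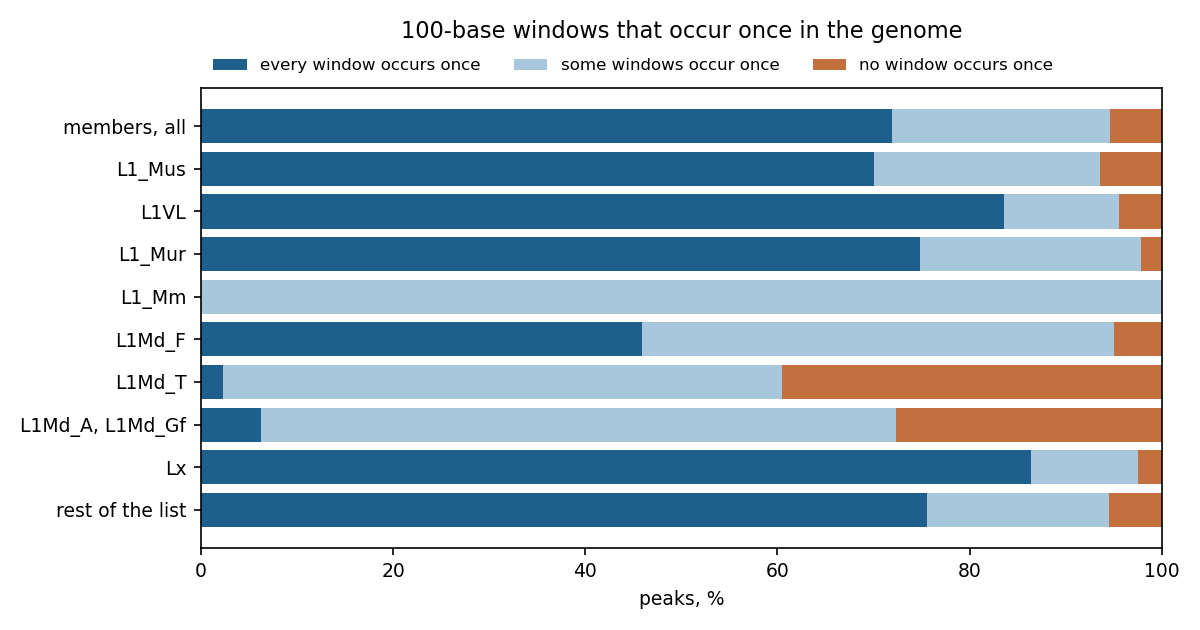
Share of peaks in which every, some or no 100-base window occurs once in the genome, for all members, the 4 name groups, other L1 types and the rest of the list. Every window occurs once in 71.9% of members, 2.33% of L1Md_T peaks and no L1_Mm peak.

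Within the 500 bases, members had a median GC content of 48.8% and 3 CpG, against 48.4% and 5 in L1Md_F and 49.4% and 7 in peaks outside L1. GC content was 51.4% upstream of ORF1, 48.0% downstream of ORF2 and 42.4% in ORF2. A reading frame free of stop codons for 150 codons or more, on the strand of the element, was found in 32 of 1062 members (3.01%), against 49.5% of L1Md_T and 5.72% of L1Md_F peaks, and in 8 of 25 L1_Mm peaks. TTGGCA, the half-site of NFI factors such as Nfix, was found on either strand in 323 of 1102 members (29.3%, 26.7 to 32.1), in 26.6% of all listed peaks over the same 500 bases, and in 16.1% of L1Md_F and 26.1% of Lx peaks. L1VL peaks had it in 40.4% (34.2 to 47.0) and L1_Mur peaks in 13.7% (8.93 to 20.4). The full site, TTGGC and GCCAA with any 5 bases between them, which can overlap the half-site, was found in 0 of 1102 members (up to 0.347%) and in 12 of 34600 listed peaks.

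Of the members, 848 were intergenic and 254 (23.0%, 20.7 to 25.6) lay in introns. None was annotated to an exon or promoter, but members were taken by repeat name from the same annotation. L1Md_T peaks (160 in introns and 572 intergenic of 732) and Lx peaks (607 and 1498 of 2105) likewise had only these classes. The absence of other classes is thus no result about the members. The rest of the list, which also has other classes, had 34.6% in introns, from which members differed by -11.5 points (-14.0 to -8.90). The share in introns was 17.5% in L1Md_F (5.59 points, 2.22 to 8.94) and 28.8% in Lx (-5.79 points, -8.89 to -2.59). Of 127 intronic members whose strand could be read from the peak, 82 (64.6%, 55.9 to 72.3) were antisense to the host gene. Regular windows of L1 inside genes were antisense in 65.9% (4717 of 7161), a difference of -1.30 points (-10.0 to 6.55), so the members' share lay near this background. Among members with a score at or above the list median it was 26 of 46 (42.2 to 69.8%). With the strand read from up to 4 kb away, 142 of 213 members (66.7%) were antisense, against 81.4% of Lx peaks (-14.7 points, -22.4 to -7.14). L1_Mur members were antisense in 24 of 27 and L1_Mus members in 62.7%. The median distance to the nearest TSS was 65.1 kb in members and 36.8 kb in the rest of the list. Within 5 kb of a TSS lay 42 members (3.81%), against 9.62% of the rest of the list, 4.61% of Lx and 1.84% of L1Md_F peaks. Unlike the members, the rest of the list includes peaks annotated to promoters and exons. The part of this in its shorter distances was not tested.

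Another listed peak lay within 10 kb of 293 members (26.6%, 24.1 to 29.3) and of 33.5% of the rest of the list (-6.94 points, -9.52 to -4.21). The share was 20.2% for L1Md_F (6.37 points, 2.82 to 9.89). It was 34.5% in L1_Mur and 25.4% in L1_Mus, 9.15 points apart (1.04 to 17.9). The nearest such peak had no repeat name in 81 cases and was another member in 58, an ERVK element in 33 and Lx in 32. Another member lay within 10 kb of 70 members (6.35%, 5.06 to 7.95). A peak of the same type lay that near to 5.05% (3.69 to 6.89) of L1Md_T, 3.68% (2.71 to 4.97) of L1Md_F and 3.52% (2.81 to 4.39) of Lx peaks. Without the 3 regions rich in members described with the chromosomes, which were set aside after the data were seen, the share was 4.55% (3.41 to 6.05) in members, 3.63% (2.66 to 4.94) in L1Md_F and 3.27% (2.58 to 4.14) in Lx, with overlapping intervals.

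Chromosome X held 107 members (9.71%), against 3.30% of the rest of the list (6.41 points, 4.79 to 8.31), 9.10% of L1Md_F and 4.23% of Lx peaks. Of the regular windows that aligned to the L1Md_T element, 11.7% (4329 of 37130) lay on X, so that the members' share was -1.95 points (-3.59 to -0.0314) from that of these windows. The 2 sets are not alike, since 57.7% of members aligned to that element. Where the centre aligned, the median identity was 88.5% in the windows and 78.9% in members. The share was 28.0% in L1_Mm and 9.82% in L1_Mus, 18.2 points apart (4.26 to 37.9). Members were 8.81% of the listed peaks on X and from 1.61% to 4.65% on the autosomes, with chromosome 7 highest. Per Mb there were 0.626 members on X, 0.839 on chromosome 7 and a median of 0.364 over the autosomes. Chromosome Y held 9. Of the 698 bins of 1 Mb with a member, 498 had 1 and 23 had 5 or more. The richest bins lay in 3 regions, singled out after their values were seen. On X from 3 to 6 Mb and from 31 to 35 Mb, around the Btbd35f genes (BTB domain genes in many similar copies), there were 25 members of 123 listed peaks and 42 of 222. On chromosome 7 from 13 to 24 Mb, with vomeronasal receptor, Obox homeobox, Sult2a sulfotransferase and Ceacam genes, there were 68 of 386. Together these regions held 135 members (12.3%). In 23 of them every 100-base window occurred once, against 769 of the other 967 members, and 89 (65.9%) had a score at or above the list median, against 46.1% of the other members. The part of repeated sequence in these scores was not tested.

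**Figure D5:**
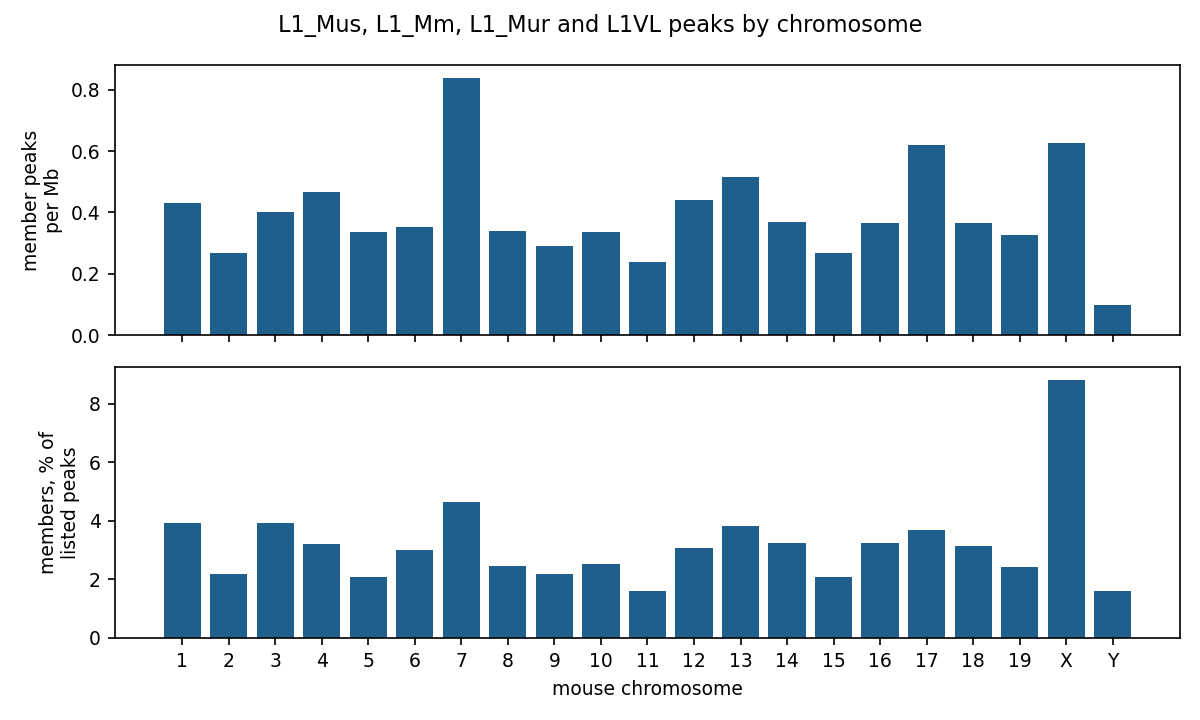
Member peaks per Mb (top) and as a share of all listed peaks (bottom) on each mouse chromosome. Chromosome 7 has the most per Mb (0.839) and X the largest share of its listed peaks (8.81%).

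The 10 members with the highest scores are given with the nearest TSS, which for most of them is far away. The highest was L1_Mus1 at chrX:31568149-31570312 (2163 bp, score 49.1, rank 53 in the list), 185.3 kb from the TSS of Btbd35f20, with 24.6% of its windows found once. Next came L1_Mus1 at chr4:147336734-147337234 (37.9, in an intron, 161.1 kb from Zfp982) and L1VL4 at chr4:147408474-147409225 (33.1, in an intron, 144.4 kb from Zfp985), where 100% and 98.6% of windows occurred once. Then came L1_Mus1 at chrX:32024280-32025865 (32.1, 63.0 kb from Spin2-ps1) and L1_Mur2 at chrX:31274426-31275330 (28.2, 61.5 kb from Btbd35f10), both in the same region of X as the highest. L1_Mus3 at chr17:21923927-21925194 (25, 14.6 kb from Zfp995) was the only one of the leading 10 placed in ORF1. The others were L1_Mus3 at chrX:5158415-5159395 (19.9, 206.8 kb from Btbd35f27), L1VL2 at chr17:17188761-17189978 (19.6, 10.1 kb from Gm38396), L1_Mus1 at chr6:73688904-73689531 (19.6, 218.2 kb from 1700065L07Rik) and L1_Mur1 at chr13:62024673-62025561 (19.3, 104.8 kb from Zfp808). Of the 10, 5 were placed downstream of ORF2 and 4 upstream of ORF1. Zfp982, Zfp985, Zfp995 and Zfp808 are named as zinc finger genes.

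A gene was taken to have a member when its TSS was the nearest to that peak. This held for 699 of 21774 protein-coding genes (3.21%), the level against which the lists are read. Btbd35f3 had the most with 9 members of 39 listed peaks (median score 8.99), then Btbd35f11 with 7 of 23, Btbd35f10 with 6 of 35, Btbd35f12 with 6 of 20 and Btbd35f27 with 6 of 17. In these 5 genes a median of 12.4% to 40.2% of windows was found once. Next, with 5 each, came 9530002B09Rik, the pseudogenes Gm20871 on chromosome Y and Gm4541, and Slitrk5, which encodes a neuronal transmembrane protein. The 5 members nearest to Slitrk5 lay 273.7 to 1421.3 kb from its TSS, all L1VL or L1_Mus, with scores of 5.46 to 7.38 and a median of 100% of windows found once. Genes with 4 included Cdh7, a cadherin, at 223.0 to 979.9 kb. At such distances the nearest gene only names the place.

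Of the gene lists, vomeronasal receptors had 50 of 350 genes with a member (14.3%), led by Vmn1r137 with 3, then Vmn1r111, Vmn1r122 and Vmn1r142 with 2 each. A listed peak of any kind was nearest to 64.6% of vomeronasal receptor genes and to 49.1% of all protein-coding genes. Several of these genes lie on chromosome 7 from 20 to 23 Mb, within a region singled out above. In each 1 Mb bin there, and at Vmn1r137, the members' median share of windows found once was 0%. Zinc finger genes named Zfp had 29 of 400 (7.25%), led by Zfp808 with 3, and cytochrome P450 genes 7 of 99 (7.07%), among them Cyp2c38 with 2 and Cyp20a1 with 1 (score 16.4, in an intron). Olfactory receptors had 35 of 1105 (3.17%), such as Olfr1450 and Olfr504 with 2 each. The Btbd35f genes, chosen after their values were seen, had 18 of 29. Genes for the extracellular matrix and its receptors had 1 of 102 (0.980%), Col3a1, a fibrillar collagen, with an L1VL4 peak 36.1 kb away (score 9.95). Axon guidance genes had 2 of 72 (2.78%), Robo1, a Slit receptor, at 100.7 kb (7.06) and Unc5c, a netrin receptor, at 36.6 kb (5.46). The granule neuron lineage had 2 of 25, the transcription factor genes Meis1 at 225.1 kb (9.63) and Zic1 at 193.5 kb (7.38). None of 37 BG and astroglia genes, 20 Purkinje cell genes or 17 genes listed for this study, among them Nfix, Setdb1 and Trim28, had a member, while a listed peak of any kind was nearest to 23, 17 and 8 of them. Lists this short would hold about 1 gene or fewer at 3.21%, so a count of 0 is no result about them.

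The member closest to a TSS was an L1VL2 peak 1130 bp upstream of Gcnt4, a glycosyltransferase gene, at chr13:96923309-96923809 (score 11.2, placed upstream of ORF1). An L1_Mus1 peak lay 1239 bp upstream of Gm13088 (8.34) and an L1VL4 peak 1466 bp upstream of Vmn1r41 (8.34). In introns, an L1_Mur1 peak lay 1450 bp downstream of the TSS of Obox7 (5.78), an L1_Mus3 peak 1626 bp downstream of that of Amy2b, an amylase gene (7.06), and an L1_Mus3 peak 1638 bp downstream of that of Snrpn, an imprinted gene (5.46). An L1VL2 peak lay 1944 bp upstream of Skint3 (11.6). The others of the 10 closest were at 1700110I01Rik, Mir6361 and Olfr350.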

How the data were processed

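The libraries were H3K9me3 ChIP of 2 Setdb1 mutant and 2 WT BG samples and 2 controls, grouped by their labels. The authors aligned reads to mm10 with Bowtie2 and called peaks with HOMER, for which the notes of the submitters give versions 2.2.8 and 4.10.1. Of the matches of a repeated read only the best was kept. The authors deposited 1 annotated list of peaks found in WT and not in mutant BG, with a peak score, width and distance to TSS. The score deposited by the authors has no stated scale. The list's heading can be read as a call against input, mutant BG or both, and depth is unknown.

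Members were taken by repeat name. The members, gene lists and comparisons were chosen with earlier results of these data known. Sequence came from RefSeq GRCm38, the build of mm10. The reference element was that with the longest ORF2 among 204 candidates with both frames near L1Md_T peaks outside chromosome 18. Peaks and regular windows were aligned with blastn (BLAST+ 2.17.0, E at most 1e-10, 100 bases or more). Placement by an alignment over the centre was tested on simulated data, which were stretches of the reference element with bases changed. Placement extended from the 4 kb to either side was not tested. Windows of 100 bases were counted over the primary chromosomes. Shares have Wilson intervals and differences Newcombe intervals (statsmodels 0.14.6). Named genes were the 10 with most members, those nearest to the 10 highest scores, up to 10 closest to a TSS within 5 kb, up to 4 of each list, and those with a member of 17 genes listed for this study; Zfp961, which lies beside a printed window, the Btbd35f family and the 3 regions were added after their values were seen. Alternatives were the score range, width, chromosomes, distances, alignment thresholds, reference elements, window lengths and gene rules. Sequence on chromosome 18 was not printed or searched for shared stretches, and 1 shared stretch in ORF2 is not reported here.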

Additional observations from a re-analysis of the deposited data

How the results depend on the processing

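No paired analysis was possible because the list merges the libraries and gives no value for any of them. For the same reason no library could be left out. The share of the list was 2.98% at scores at or above the list median, 2.61% in the highest of 5 score groups and, added after seeing the data, 2.85% without the 3 regions rich in members, against 3.18%. The share of members at or above the list median score was 38.4% at the commonest width, against 48.5%. Another listed peak lay within 5 kb of 15.3% of members, within 25 kb of 49.9% and, among peaks at or above the list median, within 10 kb of 20.2%, against 26.6%. Alignment to the element covered 61.3% of members at a looser and 39.2% at a stricter threshold, against 57.7%, and 61.0% and 62.9% with elements near an L1Md_F and an L1Md_A peak (added). The share centred on ORF2 was 17.9% when placed from 4 kb to either side (added), against 24.2%. The share at both ends, 77.9%, was 82.7% where every 100-base window occurs once and 72.0% where the alignment covers the centre (both added). The median share of windows found once was 89.8% at 50 bases, against 100%. The 699 genes became 228 by position inside the gene, 128 within 10 kb of a TSS and 359 at scores at or above the list median. The causes of these differences were not tested. The other 17 alternatives moved their value by less than its interval, among them the share in introns (22.4%), on the antisense strand (56.5% and 66.7%) and at both ends without chromosome X (80.0%).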
